A study of Homo sapiens with 3 samples.

Results

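FOLH1 encodes prostate-specific membrane antigen (PSMA), and the called regions of H3K27ac and H3K4me1 around it were examined in LNCaP, an established line from a metastatic human prostate carcinoma. Members were chosen by position, as every region of either list that overlaps chr11 from 49.05 to 49.35 Mb (hg19), and the paralogous copy FOLH1B was taken as chr11 from 89.35 to 89.45 Mb. The FOLH1 window held 36 regions (9 of H3K27ac and 27 of H3K4me1) and the FOLH1B window 17 (6 and 11), together 53 of the 271891 regions in the lists. The locus itself was proposed with earlier results on these lists known, so the regions are described and not tested. The gene was taken to span 49.168 to 49.23 Mb on the minus strand. Transcription thus runs toward lower coordinates. The ends of the gene are known to the nearest kilobase, so distances from the start carry that uncertainty.

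Crosslinked chromatin from LNCaP cells was precipitated with an antibody against H3K27ac or against H3K4me1, with 1 library per mark, and the deposited lists give the called regions. The labels give no treatment, clone or passage. The other labelled sample, an input without antibody, and the normal prostate epithelial cells and PC3 cells named in the series design were not analysed here. With 1 library per mark there is no replicate spread, no p-value was computed, and read counts are not part of the lists. Their depth is thus unknown, and a missing region does not show absence of a mark. Marker genes of prostate cells were not placed in the lists, because the available gene positions belong to GRCh38.

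PSMA is a membrane-bound zinc peptidase. It removes glutamate from polyglutamated folates, which lets the gut take up dietary folate, and in the nervous system the same enzyme, called glutamate carboxypeptidase II, cleaves the neuropeptide N-acetylaspartylglutamate. Prostate epithelium makes it, prostate carcinomas often make more, and it is the target of PSMA imaging and radioligand therapy. An enhancer in the third intron of FOLH1 is known to direct its expression in prostate cells, and androgen signalling lowers its transcription. H3K27ac marks active promoters and enhancers, and H3K4me1 marks enhancers in active or primed state. FOLH1B, a closely similar copy on the long arm of the chromosome, is listed in RefSeq as a transcribed pseudogene.

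Most of the FOLH1 gene was acetylated, but less so toward its end than near its start. H3K27ac regions covered 54.65 kb of the 62 kb gene, or 88.1%, while H3K4me1 regions covered 22.0 kb, or 35.5%. A single H3K27ac region at chr11:49186001-49231550 accounted for most of this. It was 45.55 kb wide, began 1.55 kb upstream of the gene start and ran 44 kb into the gene, over 71.0% of its length. It carried the score 0.001, the lowest of the list, as did 14.3% of all H3K27ac regions. The score is the authors' unnamed value per region, and its relation to width over the list was not tested. By width it ranked 10 among 71077 H3K27ac regions and 1 among the 3423 of chromosome 11, and it was 28.5 times as wide as the median H3K27ac region of 1600 bp.

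**Figure D1:**
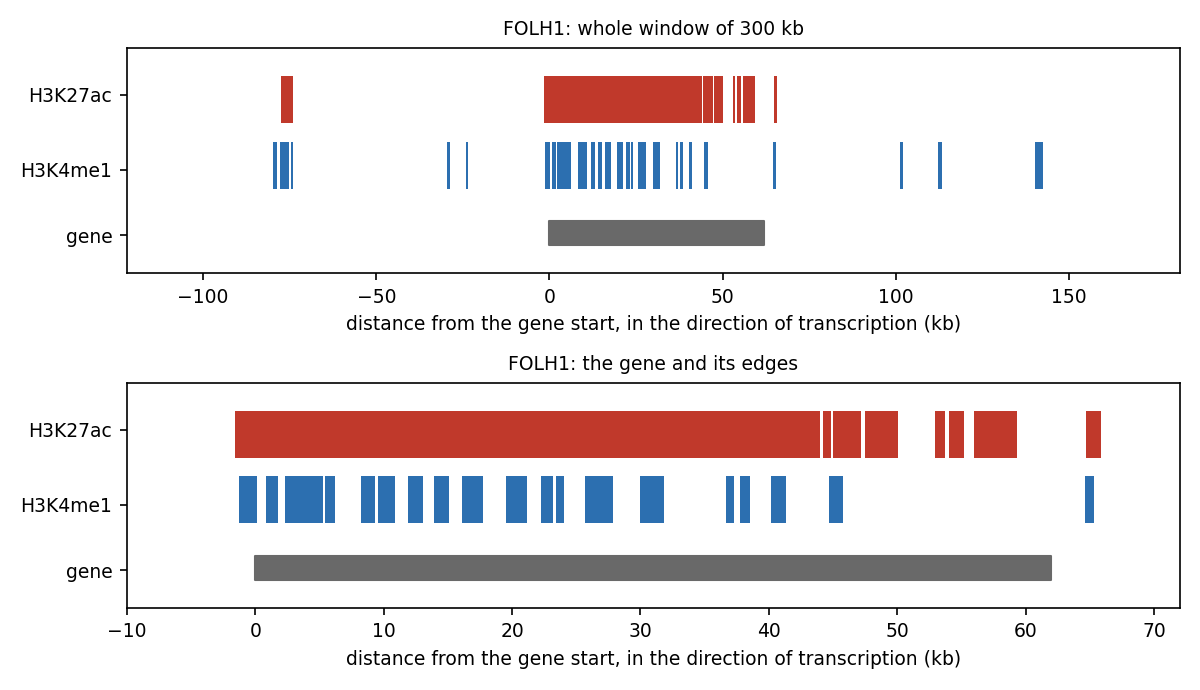
Called regions of H3K27ac (red) and H3K4me1 (blue) at FOLH1, with the gene as a dark bar, against distance from the gene start in kb in the direction of transcription; the upper panel shows the whole window and the lower panel the gene. The widest H3K27ac region runs without a break from 1.55 kb upstream to 44 kb into the gene, and the H3K4me1 regions beneath it are separate and thin out toward the gene end.

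Past this region, the acetylation broke into smaller pieces toward the gene end. A further 6 H3K27ac regions lay between 44.25 and 59.35 kb from the start and were 0.6 to 3.35 kb wide. The nearest, at chr11:49185151-49185750, was 0.6 kb wide with a score of 0.032 and was parted from the wide region by 250 bp. The next, at chr11:49182801-49185000, was 2.2 kb wide and lay 150 bp farther on, and that at chr11:49179951-49182500 was 2.55 kb wide after a break of 300 bp. Breaks of this size are a few steps of the 50 bp grid on which the regions lie, so the count of regions depends on how breaks were bridged. After a longer break of 2850 bp came chr11:49176301-49177100 (0.8 kb), chr11:49174801-49175950 (1.15 kb) and chr11:49170651-49174000 (3.35 kb). The scores of these 6 regions were 0.009 to 0.032, all above the 0.001 of the wide region. One more region of 1.15 kb lay beyond the gene end, at chr11:49164151-49165300, parted from the others by 5350 bp.

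H3K4me1 was arranged differently, as a row of short separate regions. The wide H3K27ac region held 17 H3K4me1 regions, all wholly inside it, which were 600 to 3000 bp wide with a median of 1150 bp. That median is close to the 1050 bp of the whole H3K4me1 list, so the mark that was broad at FOLH1 was H3K27ac. The 16 breaks between these H3K4me1 regions ran from 100 to 4800 bp, with a median of 1025 bp. Of the 17, 11 had a score of 0.003, 2 had 0.012, 1 had 0.044 and 3 had 0.081. In the whole list 27.8% of H3K4me1 regions scored 0.003 or less and 21.2% scored 0.081.

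Around the gene start both marks were present. An H3K4me1 region of 1.35 kb at chr11:49229901-49231250 lay over the start, from 1.25 kb upstream to 0.1 kb inside the gene, within the H3K27ac region. Since the start is known only to the nearest kilobase, it is not shown whether the start itself lay inside this H3K4me1 region. The widest H3K4me1 region of the window, 3 kb at chr11:49224701-49227700, lay between 2.3 and 5.3 kb into the gene. Between 8.2 and 21.15 kb from the start a further 6 H3K4me1 regions followed, each with a score of 0.003 and each between 1.1 and 1.65 kb wide. The enhancer of the third intron was not placed, as exon positions of this build were not used here.

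H3K4me1 was denser near the start than toward the gene end, whereas H3K27ac stayed complete over most of the gene. In steps of 10 kb from the start, H3K4me1 covered 64.5%, 53.0%, 49.0%, 32.0% and 21.5% of the length, and then 0% from 50 kb to the gene end. With scores under 0.05 alone, a setting chosen after seeing the data, the first 5 steps stood at 64.5%, 53.0%, 43.0%, 18.5% and 21.5%, so the order of the last 2 of them turned. H3K27ac covered 100% of each of the first 4 steps, then 93.0% and 53.5%, and 0% of the last 2 kb. Over the first 31 kb of the gene H3K4me1 covered 56.9%, and over the last 31 kb 14.0%, against 100% and 76.3% for H3K27ac. Upstream the marks ended abruptly: in the 10 kb before the start, H3K27ac covered 15.5% and H3K4me1 12.5%, all of it next to the start, and from 10 to 20 kb upstream neither list had a region.

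**Figure D2:**
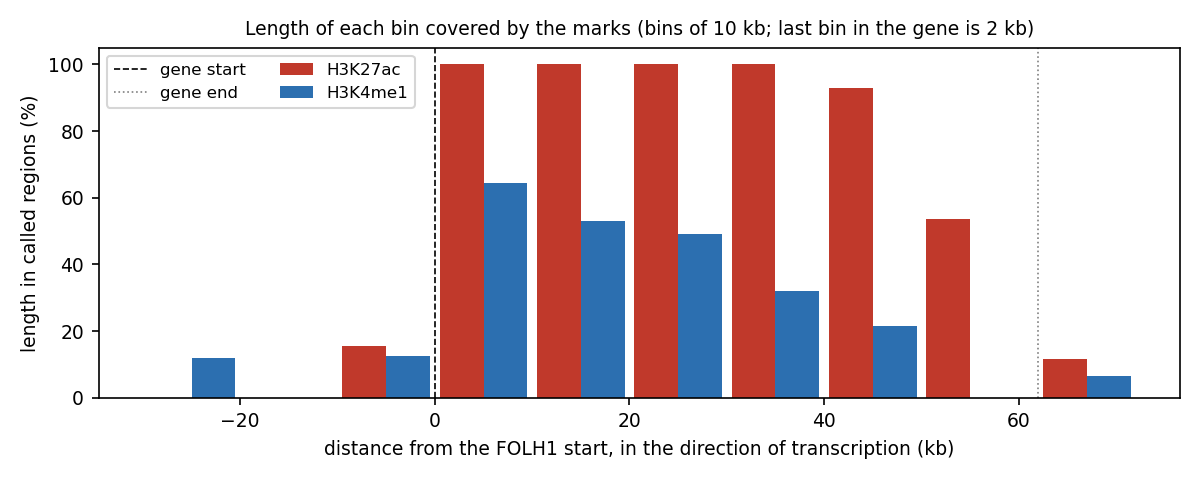
Percent of each bin covered by H3K27ac (red) and H3K4me1 (blue) regions, against distance from the FOLH1 start in kb, in bins of 10 kb with a last bin of 2 kb inside the gene. H3K27ac is at 100% over the first 4 bins of the gene while H3K4me1 falls from 64.5% to 32.0%.

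The end of the gene thus held acetylated regions without H3K4me1. A stretch of 18.9 kb at chr11:49165351-49184250 had no H3K4me1 region, and 16.25 kb of it lay in the gene. In this stretch H3K27ac regions covered 9.3 kb, or 49.2%, and 4 of them lay wholly inside it. Those 4 were the only H3K27ac regions of the FOLH1 window that met no H3K4me1. The other 5 of 9 overlapped H3K4me1 by at least 1 bp, against 83.1% of all H3K27ac regions. The exact 95% interval of 5 in 9 runs from 21.2% to 86.3%. With H3K4me1 required over at least 50% of each region, 2 of 9 remained (22.2%, interval 2.81% to 60.0%), against 70.8% of all H3K27ac regions. With regions within 1 kb merged, 3 of 4 overlapped by at least 1 bp. The share thus depended on the definition of overlap and on how breaks were bridged. The 9 regions are neighbours at 1 locus and not independent, so these intervals do not decide whether FOLH1 differs from the list. Among the 27 H3K4me1 regions, 21 overlapped H3K27ac (77.8%, interval 57.7% to 91.4%), against 34.5% of all H3K4me1 regions. Of those 21, 17 lay in the 1 wide region and are not independent of each other.

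By length, the balance of the marks at FOLH1 was the reverse of that over all chromosomes. In the gene, the H3K27ac length was 2.48 times the H3K4me1 length, and in the whole window 1.82 times. Over chromosome 11 the ratio was 0.468, and over all chromosomes 0.492. In the gene 99.3% of the H3K4me1 length was also in H3K27ac regions, but only 40.0% of the H3K27ac length was in H3K4me1 regions. The corresponding shares over all chromosomes were 35.1% and 71.5%. As H3K27ac regions covered 88.1% of the gene, most of any H3K4me1 length placed there would lie in them. The 99.3% therefore largely restates how much of the gene was acetylated. The 40.0% and the ratio of 2.48 depend also on the H3K4me1 cover of the gene, which was 35.5%.

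The share of H3K4me1 in the wide region was also low beside other broad H3K27ac regions. H3K4me1 covered 22.2 kb of it, or 48.7%. Across the 444 H3K27ac regions of 10 kb or more, which include this one, the median share was 87.8% (quartiles 66.0% and 97.1%), and 71 regions (16.0%) had a lower share. Of the regions within 5 kb of its width, 8 with itself counted, the median was 56.1% and the range 24.8% to 98.5%. In number, H3K4me1 regions were not scarce there. The wide region held 3.73 H3K4me1 regions per 10 kb, against a median of 2.06 for the 444, and 14.0% of them held more per length. H3K4me1 at FOLH1 was thus split into many short regions that together left 51.3% of the acetylated length uncovered.

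**Figure D3:**
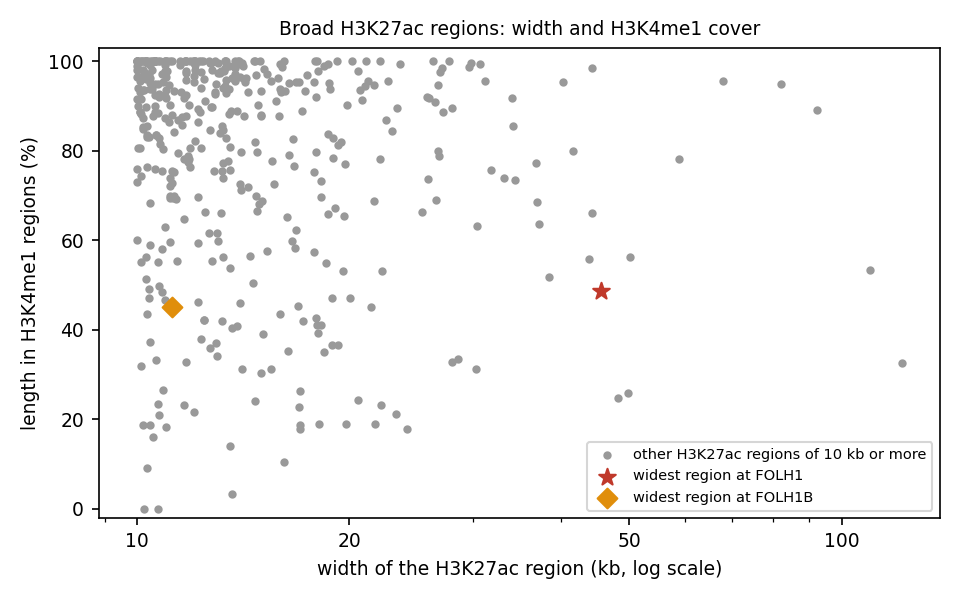
Each point is 1 of the 444 H3K27ac regions of 10 kb or more, by its width in kb (log scale) and the percent of its length in H3K4me1 regions. The widest region at FOLH1 (star) is at 45.55 kb and 48.7%, and the widest at FOLH1B (diamond) at 11.2 kb and 45.1%, both under the median of 87.8%.

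Outside the gene the FOLH1 window held little acetylation. Upstream, the only H3K27ac region was 3.35 kb wide at chr11:49304101-49307450, between 74.1 and 77.45 kb from the gene start, with a score of 0.007. H3K4me1 covered 79.1% of it, in 2 regions, of which that at chr11:49305301-49307700 was 2.4 kb wide with a score of 0.003. Another H3K4me1 region, of 1.15 kb, at chr11:49308651-49309800, lay beside it without H3K27ac. No H3K27ac region was listed over the 72550 bp between this upstream region and the wide one. Wholly within that interval H3K4me1 had 2 regions of 0.55 and 0.65 kb, both with a score of 0.081, near the upper limit of 0.093 in the list. The H3K4me1 region at chr11:49303951-49304600, which overlapped the upstream H3K27ac region, also reached into the edge of the interval. Past the gene end H3K4me1 had 4 regions, 1 of which overlapped the small H3K27ac region there. The nearest H3K27ac regions outside the window were 750 bp wide at chr11:48948701-48949450 and 950 bp wide at chr11:49405451-49406400. The nearest H3K4me1 regions outside it were 1250 bp wide at chr11:48894151-48895400 and 800 bp wide at chr11:49389751-49390550.

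FOLH1 held more of both marks per length than the 1 Mb on either side, and the contrast was greatest on the side upstream of the gene. The window held 202 kb of H3K27ac per Mb. The 1 Mb at lower coordinates held 41.95 kb in 21 regions, and the 1 Mb at higher coordinates 0.95 kb in 1 region. For H3K4me1 the window held 111 kb per Mb, against 68.2 and 7.6 kb. Over 5 Mb at lower coordinates H3K4me1 reached 170 kb per Mb, above the window, whereas H3K27ac was 69.9 kb per Mb, below it. The flank of 5 Mb at higher coordinates, which runs into the incompletely assembled centromere, held little of either mark, at 4.02 kb per Mb for H3K27ac and 5.39 kb per Mb for H3K4me1. In the RefSeq table of GRCh38, the 8 genes nearest to FOLH1 in order along the chromosome are all pseudogenes, with UBTFL9, TRIM77BP and CDONP4 on one side and NOX4P1 and TYRL on the other.

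**Figure D4:**
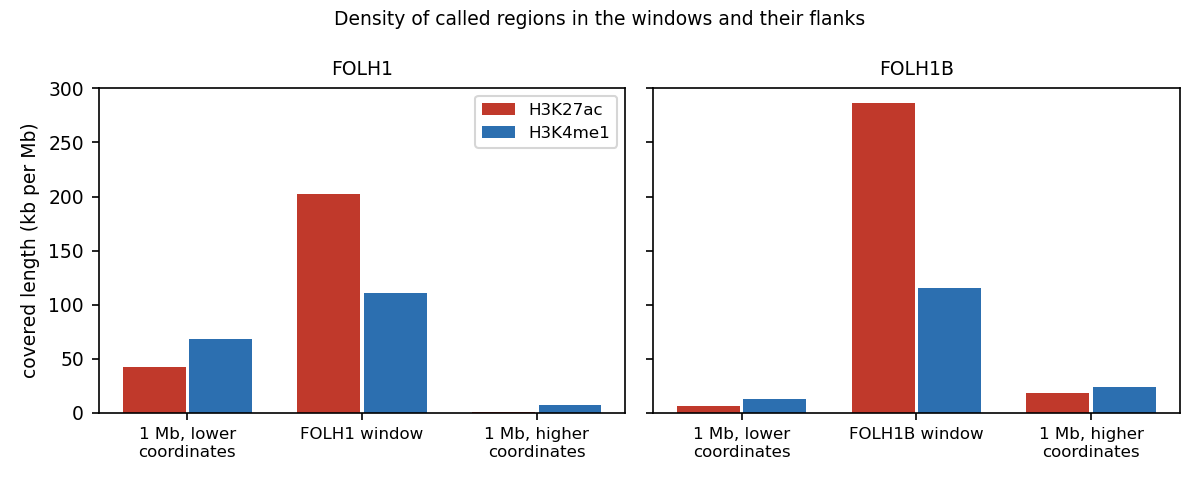
Length covered by H3K27ac (red) and H3K4me1 (blue) regions in kb per Mb, in the FOLH1 window (left) and the FOLH1B window (right) and in the 1 Mb to either side. Both windows rise above both flanks in both marks, and the FOLH1 flank at higher coordinates is at 0.95 kb of H3K27ac per Mb.

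Set among windows of the same size over all chromosomes, FOLH1 ranked higher for H3K27ac than for H3K4me1, and the rank of both depended on the window. Of 9351 non-overlapping windows of 300 kb that held a region of either list, 2.1% had at least the 60.7 kb of H3K27ac of the FOLH1 window, whose value was 5.86 times the median of 10.35 kb. For H3K4me1, 36.3% of windows had at least its 33.35 kb, which was 1.49 times the median of 22.35 kb. With windows as long as the gene, 16 of 38868 (0.0412%) held at least its 54.65 kb of H3K27ac, and 6.04% at least its 22.0 kb of H3K4me1, which was 4.44 times the median. The gene span lies on its marked stretch, whereas the compared windows lie on a fixed grid that can split other marked stretches. This placement favours FOLH1 in the rank. These ranks follow from the choice of a locus known to be marked and describe these lists alone.

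Joining H3K27ac regions at most 12.5 kb apart gave 1 cluster over FOLH1, at chr11:49164151-49231550. It held 8 regions that covered 57.35 kb, or 85.1% of its span of 67.4 kb, and ranked 59 of 37027 clusters by covered length and 5 of 1732 on chromosome 11. H3K4me1 covered 41.3% of its H3K27ac length. With a joining distance of 5 kb, the small region past the gene end dropped out, 7 regions covered 56.2 kb, and the cluster ranked 34 of 50647 and 2 of 2419 on chromosome 11. The upstream region stayed apart at both distances.

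The paralogous FOLH1B window was also acetylated, in several pieces. H3K27ac covered 28.65 kb of its 100 kb in 6 regions, and H3K4me1 11.55 kb in 11 regions. The widest H3K27ac regions were 11.2 kb at chr11:89376301-89387500 and 9.15 kb at chr11:89402151-89411300, which ranked 307 and 561 by width. Both had the lowest score of 0.001, as did 14.3% of all H3K27ac regions. The other 4 were 4.8 kb at chr11:89357701-89362500, 1.7 kb at chr11:89365701-89367400, 0.55 kb at chr11:89393401-89393950 and 1.25 kb at chr11:89399051-89400300. The position of FOLH1B within the window was not used, so these regions are not assigned to its start or body. All regions of both lists ended within 61.4 kb of the lower edge of the window.

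**Figure D5:**
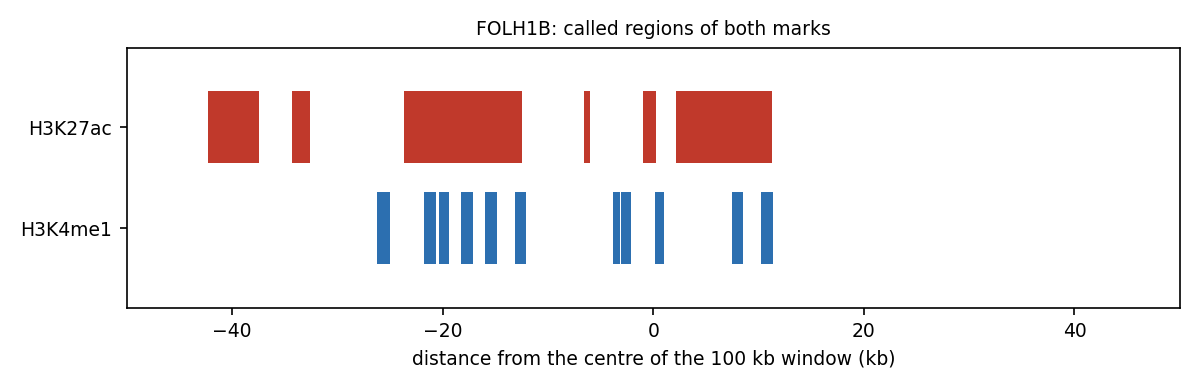
Called regions of H3K27ac (red) and H3K4me1 (blue) in the FOLH1B window, against distance from the window's centre in kb. The regions of 11.2 and 9.15 kb are the widest, and neither list has a region in the upper part of the window.

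The balance of the marks at FOLH1B resembled that at FOLH1 in direction. In the FOLH1B window of 100 kb the H3K27ac length was 2.48 times the H3K4me1 length, against 1.82 times in the FOLH1 window of 300 kb. Of the H3K27ac length, 25.8% lay in H3K4me1 regions in the FOLH1B window, against 43.4% in the FOLH1 window. Within the region of 11.2 kb, 5 H3K4me1 regions covered 45.1%, and within that of 9.15 kb, 2 covered 24.0%. H3K4me1 met 3 of the 6 H3K27ac regions (50.0%, interval 11.8% to 88.2%), against 83.1% of all, and covered at least 50% of 0 of the 6 (upper bound 45.9%), against 70.8% of all. Of the 11 H3K4me1 regions, 8 met H3K27ac (72.7%, interval 39.0% to 94.0%), against 34.5% of all. Of those 8, 5 met the region of 11.2 kb and 2 that of 9.15 kb, so they are not independent of each other. The H3K27ac regions are likewise neighbours at the same locus. These intervals therefore do not decide whether FOLH1B differs from the lists. The H3K4me1 regions were all short, between 700 and 1250 bp, and their scores were 0.003 to 0.012. In the wider FOLH1 window 8 of 27 had 0.081, but only 3 of the 18 in the gene. In the whole H3K4me1 list 21.2% had that score.

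Of 25825 windows of 100 kb, 1.51% held at least as much H3K27ac as the FOLH1B window and 36.2% at least as much H3K4me1. A window of the same size centred on the FOLH1 gene held 57.35 kb of H3K27ac, which 0.167% of windows reached. It held 23.9 kb of H3K4me1, which 13.3% reached. Being centred on the gene favours it over the compared windows, which lie on a fixed grid. The FOLH1B regions joined into 1 cluster of 53.6 kb at a distance of 12.5 kb, covered over 53.5% of its span and ranked 292, but fell into 4 clusters at 5 kb. Like FOLH1, the window stood above its flanks. The 1 Mb to either side held 6.25 and 18.15 kb of H3K27ac per Mb, against 286.5 kb in the window, and 13.05 and 23.75 kb of H3K4me1, against 115.5 kb. The nearest H3K27ac regions outside the window were 3800 bp wide at chr11:89288101-89291900 and 1300 bp wide at chr11:89836451-89837750, and the nearest H3K4me1 regions 600 bp at chr11:89344451-89345050 and 1200 bp at chr11:89460901-89462100.

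Reads from the copies can be alike in sequence, and how reads that match several places were treated is not given in the sources used here. Signal that arose at FOLH1 and signal that arose at FOLH1B therefore cannot be told apart wherever the copies are identical. Whether breaks between regions at either locus are breaks in the mark was not tested. The neighbours of the copies are alike in name too. In the order of the RefSeq table of GRCh38, FOLH1B also lies between NOX4 on one side and UBTFL10, TRIM77 and CDONP1 on the other, which are names of the same families as the pseudogenes beside FOLH1. The deposited lists hold no sequence, and no promoter sequence of either gene was used.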

How the data were processed

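H3K27ac and H3K4me1 ChIP-seq of LNCaP cells was analysed from 1 deposited region list per mark. Bowtie 0.12.8 and hg19 are named per the submitters' processing notes. How regions were called, at what threshold, with or without the input and with what treatment of multiply matching reads is not given in the sources used here. Each list gives chromosome, start, end and a score per region, deposited by the authors without a name or header. The score has 12 values in the H3K27ac list and 13 in the H3K4me1 list and served only to describe and filter regions.

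Starts were read as 0-based and are printed from 1. Windows and the gene span were those of the selection rule, and 1 mitochondrial region per list was left out. An overlap was at least 1 bp. Ranks were taken among non-overlapping windows of equal size that held a region of either list, counted from the chromosome start, and include those over the locus. Intervals are exact Clopper-Pearson, treat regions as independent and cover counting error only. The interval code was tested on 20 pairs of simulated lists against base-by-base counting, with 0 wrong values. Members, lists and settings were chosen with earlier results of these data known. Named items are FOLH1 and FOLH1B, with regions in or touching the gene given by coordinates or range. Marker and related gene lists that needed an annotation of this build were not used. Neither gene matched an entry of the promoter sequence table. Analyses used Python 3.11.15, matplotlib 3.10.9, scipy 1.17.1, pandas 2.3.3 and numpy 2.4.6.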

Additional observations from a re-analysis of the deposited data

How the results depend on the processing

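Of 77 alternative values of 28 results, 53 stayed within 1.5 times the main value, or within its exact interval for shares, and 24 did not. With at least 50% of the region covered, the H3K27ac regions meeting H3K4me1 fell from 55.6% to 22.2% at FOLH1, near the lower end of the wide interval of the main share, and to 0% at FOLH1B, the latter setting chosen after seeing the data. Also chosen then, H3K4me1 scores under 0.05 left 18.5% of the step from 30 to 40 kb into FOLH1 covered. None changed the order of the marks by covered length at FOLH1 or FOLH1B. With scores at or below the list median, the FOLH1 window held 5 H3K27ac and 15 H3K4me1 regions and the FOLH1B window 7 H3K4me1 regions. With regions within 1 kb merged, FOLH1 held 4 H3K27ac and 17 H3K4me1 regions. The gene span alone held 22.0 kb of H3K4me1. The share of windows reaching the FOLH1 values was, by number of regions, 37.7% for H3K27ac and 34.5% for H3K4me1, so FOLH1 ranked high by acetylated length and not by number. It was 41.4% for H3K4me1 on chromosome 11 alone. Chosen after seeing the data, windows as long as the gene gave 0.0412% and 6.04%, and 100 kb centred on it 0.167% and 13.3%. For FOLH1B the shares by number were 15.2% and 29.9%, on chromosome 11 alone 2.11% and 40.1%, and for H3K4me1 at scores up to the median 42.2%. The cluster at FOLH1 ranked 34 with a joining distance of 5 kb. Flanks of 5 Mb held 69.9 and 4.02 kb of H3K27ac per Mb at lower and higher coordinates, and 170 kb of H3K4me1 at lower ones. The cause of these shifts was not tested. No paired analysis was possible because there are no replicates. The lists give no read counts, so how far breaks and missing regions depend on depth was not tested.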
